A study of Anopheles stephensi with 4 samples.

Results

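In adult female Anopheles stephensi, a mosquito that carries malaria parasites in South Asia, 187 of 12340 reference genes were low only in midgut. A gene was placed in this set when the lowest of its levels in fat body, ovary and Malpighian tubules, as FPKM + 1, was at least 3 times its midgut level, as FPKM + 1. FPKM counts fragments relative to transcript length and to a scaling of each library, and the deposited columns differ in their sums. A gene's level is the sum over the transcripts assigned to it. The genes were thus chosen by these measured FPKM levels, so the levels below are a description and carry no test. The set made up 1.52% of all reference genes and 2.99% of the 6245 genes that could have entered it, those at 2 FPKM or more in each of fat body, ovary and Malpighian tubules.

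The fat body, ovaries, midgut and Malpighian tubules were dissected from sugar-fed adult females, reared at 70% humidity and 27 °C under 12 h of light alternating with 12 h of darkness. All 4 groups share species, sex and feeding, and the strain, the age in days and the number of mosquitoes behind each library are not given in the sources used here. Each tissue had 1 library of total RNA, run on 2 lanes, with an estimated 27490311 fragments in midgut and up to 36316835 in the other tissues. Every difference below is one between single libraries, with no replicate check and no p-value. The files give no names for the gene identifiers, and 0 of the 12340 identifiers occurred in the RefSeq table of 15394 genes. Genes are given by identifier and position, no function is stated for them, and the tissues could not be checked against marker genes.

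The midgut is a tube of epithelium that digests the sugar and blood meals, absorbs nutrients and meets ingested parasites first. Fat body, the counterpart of liver and adipose tissue, stores nutrients and secretes proteins into the haemolymph. Malpighian tubules are excretory epithelia that open into the gut, and the ovary holds the developing egg follicles. In whole dissected organs, fewer cells of an expressing type and less RNA per cell cannot be told apart.

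For 4 of the 187 genes the midgut level was not measured at all. They lie in 1 assembled locus of 6 reference genes on scaffold_00061 (544703 to 564386), where all 13 transcripts carried the status HIDATA in midgut, which marks too many fragments for an estimate, and all 13 were listed at 0. No other transcript in the table had this status in midgut. ASTEI08034 (scaffold_00061, 551705 to 552717, plus strand, 2 exons) stood at 1066 FPKM in fat body, 378 FPKM in ovary and 893 FPKM in Malpighian tubules. It had the largest ratio of all 187 genes, and the locus held 3 of the 5 largest ratios. The listed 0 says nothing about a low midgut level there. These 4 genes are set apart below, and the other 183 are described. These 183 were 1.48% of the reference genes with a midgut estimate.

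The 183 genes were well expressed outside midgut and low within it. Their median level was 28.5 FPKM in ovary (quartiles 13.3 and 75.7), 24.4 FPKM in fat body (10.3 and 82.9), 13.0 FPKM in Malpighian tubules (5.94 and 33.9) and 1.55 FPKM in midgut (0.616 and 4.43). The other 6057 genes at 2 FPKM or more in the 3 tissues had medians of 17.8 FPKM in both ovary and midgut, 16.6 FPKM in Malpighian tubules and 16.7 FPKM in fat body. In ovary and fat body the 183 genes were thus higher than these other genes at the median, and in Malpighian tubules lower. The ratio of the lowest tissue to midgut had a median of 3.73 and ran from 3.004 to 24.8, and that of the highest tissue to midgut a median of 19.3. The highest tissue exceeded midgut at least 10-fold in 140 genes, at least 30-fold in 72 and at least 100-fold in 9, on the FPKM + 1 scale.

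**Figure D1:**
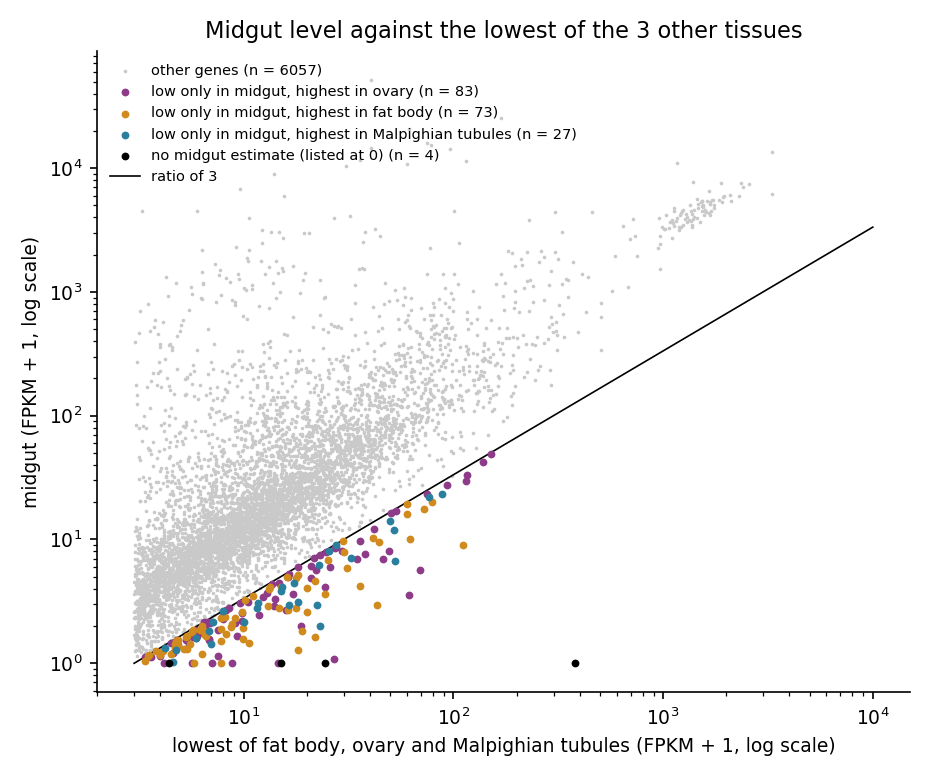
Each point is a reference gene at 2 FPKM or more in fat body, ovary and Malpighian tubules, by its lowest level among these tissues (horizontal, FPKM + 1, log scale) and its midgut level (vertical, FPKM + 1, log scale), with 1 library per tissue. The 183 genes below the line of ratio 3 lie mostly close to it, and the gene farthest to the right at the bottom is ASTEI08034, which had no midgut estimate.

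In midgut, 73 of the 183 genes (39.9%) were below 1 FPKM and 7 of these were listed at 0. A further 68 genes stood between 1 and 5 FPKM, 25 between 5 and 10 FPKM, and 17 at 10 FPKM or more. Behind the midgut levels were a median of 70.0 estimated fragments per gene, and 141 genes had at least 20. The authors' upper bound in midgut was below the lowest lower bound of the other 3 tissues in 166 of the 183 genes, compared with 5.3% of all genes with a midgut estimate. The rule itself favours such a separation, so this count describes the width of the bounds only. With 1 library per tissue, these bounds cannot include variation between animals or dissections.

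Of the 7 genes listed at 0 in midgut, 6 had an upper limit well under their levels elsewhere. The limit that 3 fragments allow, for counting error only, lay between 0.0881 FPKM (ASTEI09745) and 0.343 FPKM (ASTEI09369) in these 6. All 6 share an assembled unit with another reference gene, as 18.0% of the set did, so fragments may have been assigned to the neighbour, which was not tested. ASTEI09208 (scaffold_00085, 178951 to 180794) had 12.2 FPKM in ovary, 9.07 FPKM in fat body and 7.82 FPKM in Malpighian tubules. The listed level of its lowest tissue was 84.7 times the midgut limit of 3 fragments. This compares plain FPKM, without the + 1 of the other ratios. ASTEI01169 (scaffold_00004, 3191204 to 3191956) had 81.4 FPKM in fat body, 6.75 FPKM in ovary and 39.1 FPKM in Malpighian tubules. On the same plain scale the lowest of them was 27.1 times the midgut limit. The limit for the remaining gene, ASTEI12178, was 19.4 FPKM in midgut, because its transcript has 141 bases. It stood at 13.9 FPKM in fat body, 23.1 FPKM in ovary and 3.16 FPKM in Malpighian tubules, the last from 1 estimated fragment, so that no difference of midgut from fat body or Malpighian tubules was detectable at this depth. ASTEI12178, ASTEI11599 and ASTEI11639 were the only genes of the 183 with fewer than 20 fragments in any of the 3 tissues.

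Ovary was the highest tissue for 83 of the 183 genes (45.4%), fat body for 73 (39.9%) and Malpighian tubules for 27 (14.8%). Among the other 6057 genes these shares were 43.6%, 27.0% and 29.3%. The share of the set was the larger one for fat body and the smaller one for Malpighian tubules, and this difference was not tested. With every column scaled to the same sum, the same 183 genes peaked in ovary in 99 cases (54.1%), in fat body in 53 (29.0%) and in Malpighian tubules in 31 (16.9%), and the other genes in 59.8%, 9.84% and 30.4%. The direction of both differences held under this scaling. Malpighian tubules were the lowest of the 3 tissues in 96 genes, ovary in 48 and fat body in 39, and with equal sums these counts were 80, 21 and 82.

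**Figure D2:**
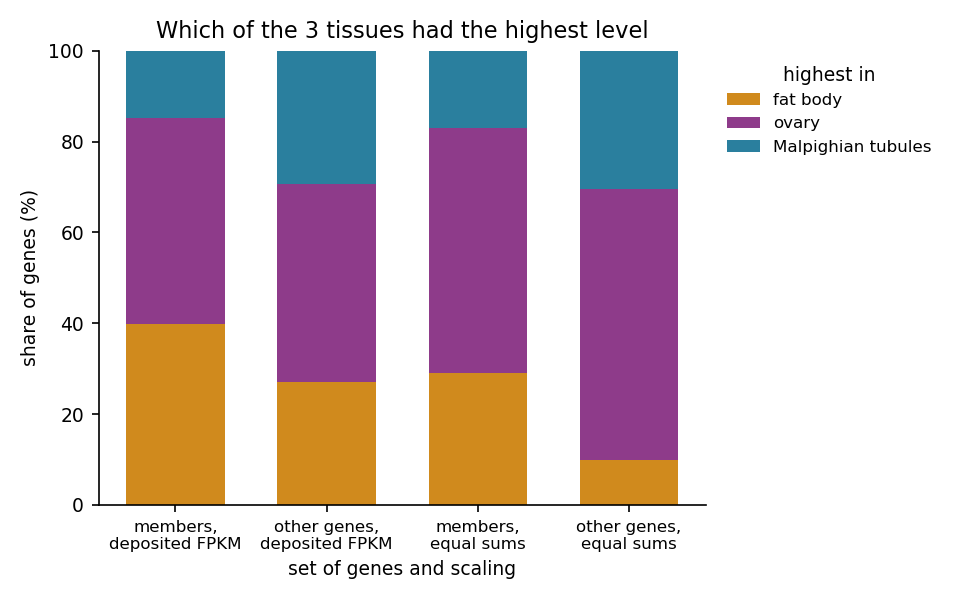
Stacked bars give the share of genes (percent) whose highest level among the 3 tissues was in fat body, ovary or Malpighian tubules, for the 183 genes low only in midgut and for 6057 other genes, with deposited FPKM and with columns scaled to equal sums. Fat body takes 39.9% of the 183 genes against 27.0% of the others with deposited FPKM, and 29.0% against 9.84% with equal sums.

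The genes were unevenly expressed even outside midgut with deposited FPKM. Levels in fat body, ovary and Malpighian tubules lay within 2-fold of each other in 28 of the 183 genes (15.3%), against 32.0% of the other genes, and within 3-fold in 53 (29.0%), against 57.0%. Ovary exceeded the other 2 of these tissues at least 5-fold (FPKM + 1) in 29 genes (15.8%), fat body in 23 (12.6%) and Malpighian tubules in 2 (1.09%). Of the other genes, 1.47%, 2.56% and 2.46% did so. The share of the set was above that of the other genes for ovary and fat body and below it for Malpighian tubules. None of these counts was made with equal sums, which change the order of the tissues in many genes.

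The 83 genes highest in ovary had a median of 65.4 FPKM there, with 11.9 FPKM in Malpighian tubules, 16.1 FPKM in fat body and 1.68 FPKM in midgut. Relative to ovary, the median was 24.3% in fat body (quartiles 15.5 and 48.6), 21.8% in Malpighian tubules (8.78 and 41.0) and 2.44% in midgut (1.37 and 5.08). Among the 2642 other genes highest in ovary, these medians were 47.0%, 44.9% and 46.8%. With equal sums the median levels of these other genes were 6.92 in midgut, below 9.66 in fat body and below 14.4 in Malpighian tubules, so the place of midgut among them depends on the scaling.

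ASTEI09319 (scaffold_00089, 9808 to 12360, plus strand), the most abundant of the genes highest in ovary, had 1760 FPKM there (authors' bounds 1711 to 1808), 149 FPKM in Malpighian tubules (129 to 170), 332 FPKM in fat body (318 to 347) and 48.2 FPKM in midgut (39.4 to 57.0). Midgut was the lowest library but still held 1991 estimated fragments of this gene, the most of any of the 183. ASTEI07734 (scaffold_00057, 1126413 to 1131505, minus strand, 3 exons) followed, with 623 FPKM in ovary (604 to 641), 138 FPKM in Malpighian tubules (123 to 152), 114 FPKM in fat body (102 to 127) and 28.6 FPKM in midgut (23.6 to 33.5). Both genes remained well above 1 FPKM in midgut, at ratios of the lowest tissue to midgut of 3.06 and 3.89. With equal sums these ratios were 6.41 and 5.25. The annotated transcript of ASTEI09319 alone had a ratio of 1.58, so its place in the set rests on the assembled isoform.

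The 73 genes highest in fat body had a median of 74.1 FPKM there, 16.8 FPKM in ovary, 11.0 FPKM in Malpighian tubules and 0.973 FPKM in midgut. Relative to fat body, the median was 1.47% in midgut, 18.7% in Malpighian tubules and 23.2% in ovary, and among the 1638 other genes highest in fat body it was 87.6%, 59.5% and 45.5% in the same order. With equal sums the median levels of these other genes were 58.1 in fat body and 28.0 in midgut. Midgut was below 1 FPKM in 37 of these 73 genes (50.7%), in 29 of the 83 highest in ovary (34.9%) and in 7 of the 27 highest in Malpighian tubules (25.9%).

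ASTEI09198 (scaffold_00085, 115702 to 143726, minus strand) reached 2512 FPKM in fat body (2399 to 2626), the highest level in the set, with 70.1 FPKM in ovary (50.8 to 89.4), 58.8 FPKM in Malpighian tubules (39.4 to 78.2) and 15.0 FPKM in midgut (8.96 to 21.0). Its main isoform overlaps exons on the opposite strand, so its level is uncertain. ASTEI06661 (scaffold_00043, 136611 to 138157, minus strand, 6 exons) stood at 1715 FPKM in fat body (1681 to 1750), 68.3 FPKM in ovary (60.5 to 76.0), 43.0 FPKM in Malpighian tubules (37.6 to 48.3) and 8.58 FPKM in midgut (6.64 to 10.5). The fat body level of both was over 20 times that in ovary and Malpighian tubules, and it was the latter that the ratio to midgut rested on, 3.74 and 4.59.

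The 27 genes highest in Malpighian tubules were the most evenly spread with deposited FPKM. Their median was 41.6 FPKM there, 20.2 FPKM in fat body, 15.4 FPKM in ovary and 2.07 FPKM in midgut. Relative to the tubules, the medians were 58.2% in fat body, 53.0% in ovary and 6.10% in midgut. Among the 1777 other genes highest in the tubules, the midgut median was 102% of the tubule level with deposited FPKM, while with equal sums the median levels were 27.5 in midgut and 65.7 in the tubules. ASTEI05512 (scaffold_00031, 1107539 to 1112034, plus strand, 6 exons) had 279 FPKM in tubules (261 to 297), 61.8 FPKM in ovary (48.5 to 75.2), 31.4 FPKM in fat body (25.4 to 37.4) and 6.11 FPKM in midgut (1.89 to 10.8). ASTEI04814 (scaffold_00026, 403219 to 408044, minus strand, 3 exons) had 222 FPKM in tubules (201 to 244), 94.1 FPKM in fat body (84.2 to 104), 51.3 FPKM in ovary (45.4 to 57.2) and 10.8 FPKM in midgut (8.67 to 13.0). In both genes the midgut bounds lay below those of every other tissue.

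**Figure D3:**
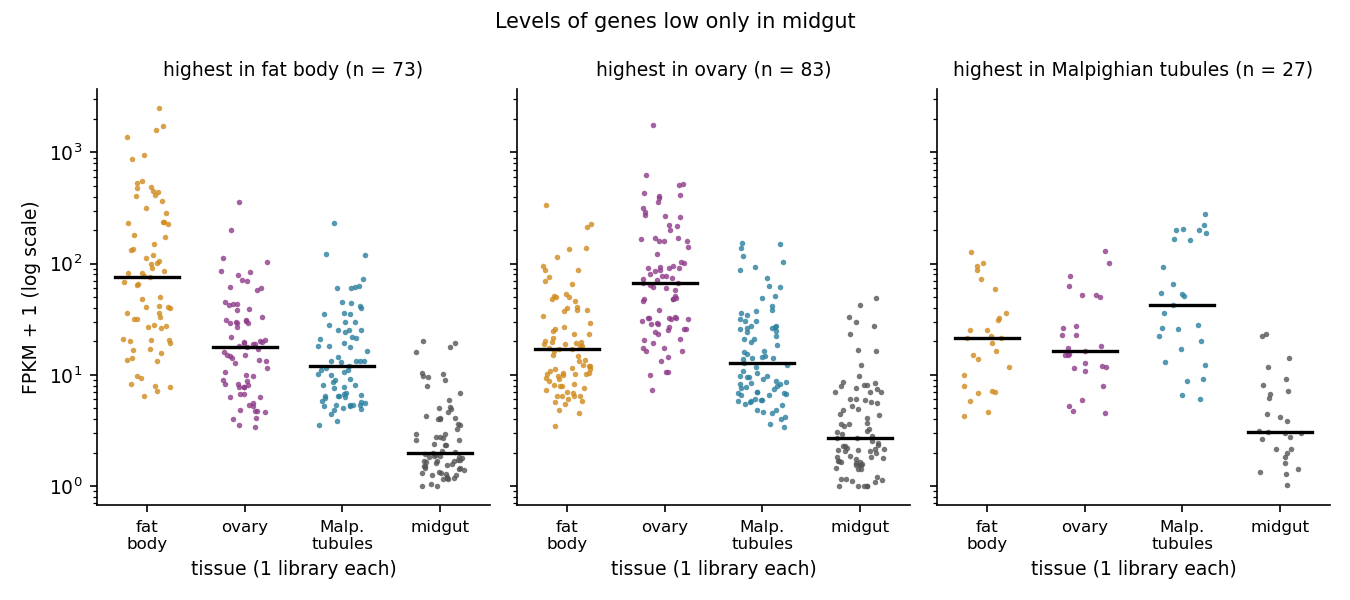
Points are the 183 genes low only in midgut, split by the tissue of highest level, with FPKM + 1 on a log scale in each of the 4 libraries and a bar at the median. The midgut median was 0.973 FPKM for the genes highest in fat body, 1.68 FPKM for those highest in ovary and 2.07 FPKM for those highest in Malpighian tubules.

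The genes with the largest ratios and a midgut estimate differed in kind. ASTEI09527 (scaffold_00096, 71173 to 71985, minus strand, 2 exons) had 36.9 FPKM in ovary (30.7 to 43.2), 29.6 FPKM in Malpighian tubules (24.3 to 34.9), 25.9 FPKM in fat body (21.1 to 30.7) and 0.0871 FPKM in midgut (0 to 0.321), the last from 1 estimated fragment. It was close to absent from midgut, at a ratio of 24.8. The 3 other tissues were nearly level with deposited FPKM but not with equal sums, where it stood at 81.6 in ovary, 49.1 in Malpighian tubules and 27.7 in fat body. ASTEI04581 (scaffold_00024, 857057 to 887848, minus strand) had 158 FPKM in ovary (144 to 173), 86.4 FPKM in fat body (61.3 to 113), 60.4 FPKM in Malpighian tubules (45.1 to 75.7) and 2.58 FPKM in midgut (1.05 to 4.48), a ratio of 17.2. Its main isoform has 11 exons and 25889 bases of introns.

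The 10 genes just inside had ratios from 3.004 to 3.05 and a median midgut level of 1.40 FPKM, and the 10 just outside had ratios from 2.94 to 2.997 and a median of 1.46 FPKM. The nearest inside were ASTEI01457 and ASTEI06016, at ratios of 3.004 and 3.01, with 1.82 FPKM and 1.66 FPKM in midgut. Outside it were ASTEI05672 and ASTEI00103, both at a ratio of 2.997, with 31.7 FPKM and 1.58 FPKM in midgut. Of the 183 genes, 51 had a ratio below 3.3, and 41 other genes had a ratio of 2.7 or more.

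The size of the set moved with scaling and with the tissues required. The deposited FPKM summed to 935008 in fat body, 603002 in Malpighian tubules, 452542 in ovary and most, 1272696, in midgut, and with columns scaled to equal sums 510 genes (4.13%) were low only in midgut. All 187 genes were among them. This was fixed in advance, because the midgut sum lay above the common sum of 1000000 and the other sums lay below it. The 323 added genes with a midgut estimate peaked in ovary in 168 cases, in fat body in 99 and in Malpighian tubules in 56. With the same rule and deposited FPKM, 538 genes (4.36%) were low only in ovary, 23 (0.186%) only in fat body and 9 (0.0729%) only in Malpighian tubules. With equal sums these counts were 204 (1.65%), 71 (0.575%) and 5 (0.0405%), so that midgut passed ovary as the tissue with the most such genes. Among assembled loci outside the reference genes, 29 of 2432 (1.19%) were low only in midgut. Without the ovary library in the rule 391 genes were at least 3-fold lower in midgut, without Malpighian tubules 385 and without fat body 262.

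The genes low only in midgut had longer introns at the median than the other genes at 2 FPKM or more. The main isoform, the one with the highest mean FPKM over the 3 tissues, had a median of 1670 intron bases in all (quartiles 259 and 7078), against 438 bases (139 and 2878) in the other 6057 genes and 359 bases in all reference genes. Introns summed to 10000 bases or more in 41 of the 183 genes (22.4%) and in 10.6% of the other genes. Exonic length differed less, with a median of 2118 bases (1140 and 3524) against 1802 bases (978 and 3396), and both had a median of 4 exons. The annotated transcripts did not share this length difference, at medians of 1326 bases in the set and 1368 bases in the other genes. Single-exon main isoforms made up 6.01% of the set and 7.25% of the other genes. Genes are not replicates, and no test was made of these differences.

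**Figure D4:**
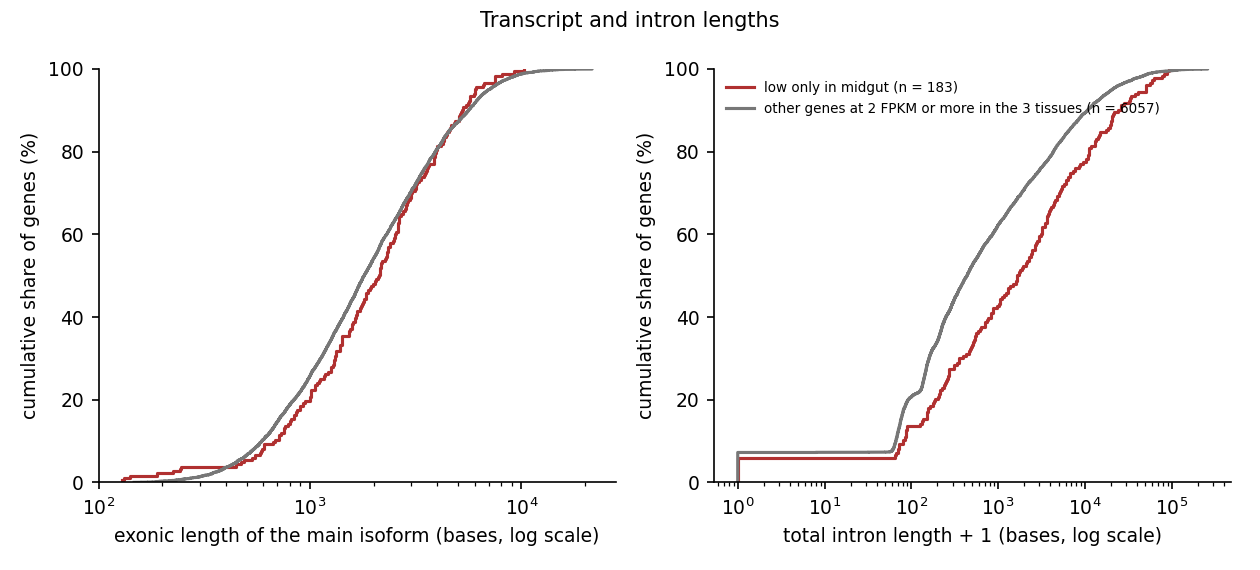
Cumulative shares of genes (percent) by the exonic length of the main isoform and by its total intron length + 1 (bases, log scales), for the 183 genes low only in midgut and 6057 other genes at 2 FPKM or more in fat body, ovary and Malpighian tubules. The curves of exonic length lie close together (medians 2118 and 1802 bases), while those of intron length are apart (1670 and 438 bases).

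The intron difference was present at each number of exons and each level looked at. It was 199.5 against 147 bases at 2 or 3 exons, 1947 against 671 bases at 4 or 5, 7039 against 2887 bases at 6 to 9, and 21401 against 8787 bases at 10 or more. By mean level over the 3 tissues, the medians were 8960 against 337 bases below 10 FPKM (26 genes of the set), 2215 against 418 bases from 10 to 30 FPKM, 1598 against 514 bases from 30 to 100 FPKM, and 945 against 552 bases above that. By highest tissue the medians were 1958 against 313 bases in fat body, 3644 against 895 bases in Malpighian tubules, and 821 against 352 bases in ovary. For ovary the quartiles overlapped widely, at 153 and 4961 bases against 129 and 2425 bases, and the annotated transcripts differed little, at 352 against 295.5 bases. The annotated transcripts of the whole set had medians of 876 and 348 intron bases. When the rule itself was applied to annotated transcripts alone, the genes it chose had a median of 580 intron bases. Genes alone in their assembled unit had medians of 1619 bases (150 genes of the set) and 376 bases.

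Long introns were not shared by all genes of the set, and not limited to it. The 39 genes with a ratio of 5 or more had a median of 580 intron bases, and the 144 with a smaller ratio 1837 bases. The 23 genes low only in fat body had a median of 4632 bases and the 538 genes low only in ovary 383 bases.

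The set had somewhat more transcript models per gene. Of the 183 genes, 127 (69.4%) had 2 or more models and 26 (14.2%) had 5 or more, against 59.8% and 8.07% of the other genes. The annotated transcript was the main isoform in 84 genes (45.9%), against 53.1%. Assembled isoforms that share a splice junction with the annotated transcript carried 49.0% of the summed level of the set, and the annotated transcripts 49.6%. With the annotated transcripts alone, 108 genes were low only in midgut, 89 of them among the 187. Of the 183 genes, 33 (18.0%) shared an assembled unit with a further reference gene, against 11.4% of the other genes, and there fragments may be divided between neighbours. Exons of the main isoform overlapped exons on the opposite strand in 24 genes (13.1%), against 17.5% of the other genes, and whether the libraries kept strand is not stated.

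The isoforms are described one by one, although their summed levels chose the genes. Counting an isoform as expressed at 1 FPKM and 10% of its gene, 257 isoforms of the 183 genes were expressed in fat body, ovary and Malpighian tubules alike. Of these, 161 (62.6%) met the ratio of 3 by themselves, and 0 had a midgut level at or above the lowest of the 3 tissues. A gene with a single model, as 56 of the 183 were, meets the ratio in that isoform by the rule itself, so these counts show nothing beyond it. No gene of the set had an isoform of 1 FPKM or more that was highest in midgut, compared with 39.7% of the other genes, a difference that the rule makes likely. Of the 183 genes, 96 had 2 or more expressed isoforms in fat body (52.5%), 96 in ovary (52.5%) and 89 in Malpighian tubules (48.6%), against 38.9%, 43.8% and 40.1% of the other genes. In midgut 98 genes had an expressed isoform and 29 of them (29.6%, against 39.0% of the other genes) had 2 or more, a count that the threshold of 1 FPKM limits.

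The main isoform was the same in fat body, ovary and Malpighian tubules in 78 of the 127 genes with 2 or more models (61.4%), against 70.9% of 3621 other genes. In 42 of these 78 genes midgut had 1 FPKM or more, and the main isoform there was the same in 38 (90.5%), against 92.3% of the other genes. In these 42 genes, picked because the same isoform led in fat body, ovary and Malpighian tubules, that isoform mostly led in midgut too. The share was close to that of the other genes, so it shows nothing particular to the set. Of the 77 genes with 2 or more models and at least 1 FPKM in midgut, the main isoform in midgut was that of fat body in 60 (77.9%), of ovary in 54 (70.1%) and of Malpighian tubules in 51 (66.2%). Among the other genes these shares were 80.2%, 76.2% and 83.4%, so the tubules had the lowest share in the set and the highest among the other genes. The difference was not tested.

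Among the 110 genes at 1 FPKM or more in midgut, ASTEI04032 and ASTEI07656 differed most in isoform share. For ASTEI04032 (scaffold_00019, plus strand), ANSTF.3771.1 (2223473 to 2249088, 9 exons, 7495 bases) held 97.9% of the gene's level in midgut, at 1.64 FPKM (1.13 to 2.15), and 23.6% in fat body, 1.41% in ovary and 33.5% in Malpighian tubules. Its level was 5.31 FPKM in fat body (4.27 to 6.35), 3.07 FPKM in ovary (2.59 to 3.54) and 4.99 FPKM in Malpighian tubules (4.15 to 5.83). The annotated isoform (2232900 to 2245117, 6 exons, 900 bases) reached 142 FPKM in ovary (132 to 152), 12.0 FPKM in fat body and 7.03 FPKM in Malpighian tubules and was listed at 0 in midgut. The isoform left in midgut thus differed across tissues far less than the one missing there. A further isoform, ANSTF.3771.3, had 72.0 FPKM in ovary and 0.0349 FPKM in midgut. ASTEI04032 shares an assembled unit with another reference gene, so fragments may be divided between them, which was not tested.

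For ASTEI07656 (scaffold_00057, plus strand), ANSTF.7077.1 (23753 to 30453, 8 exons) held 72.8% in midgut, at 2.82 FPKM (2.13 to 3.51), and 11.4% in fat body, 13.6% in ovary and 17.9% in Malpighian tubules. Its levels in fat body, 4.28 FPKM (2.57 to 5.99), and in Malpighian tubules, 3.57 FPKM (2.48 to 4.66), had bounds that overlap those in midgut, and ovary stood at 9.79 FPKM (4.74 to 14.8). ANSTF.7077.2 (24251 to 30453, 8 exons) led in fat body at 18.1 FPKM (14.1 to 22.1) and stood at 0.228 FPKM in midgut (0 to 0.820). ANSTF.7077.6 (35488 to 39431, 7 exons) led in ovary at 42.0 FPKM (36.1 to 47.8), with 0.663 FPKM in midgut (0.174 to 1.15). Its span overlaps neither of these 2, while the annotated transcript (26735 to 39162, 20 exons) overlaps a part of each of the 3.

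**Figure D5:**
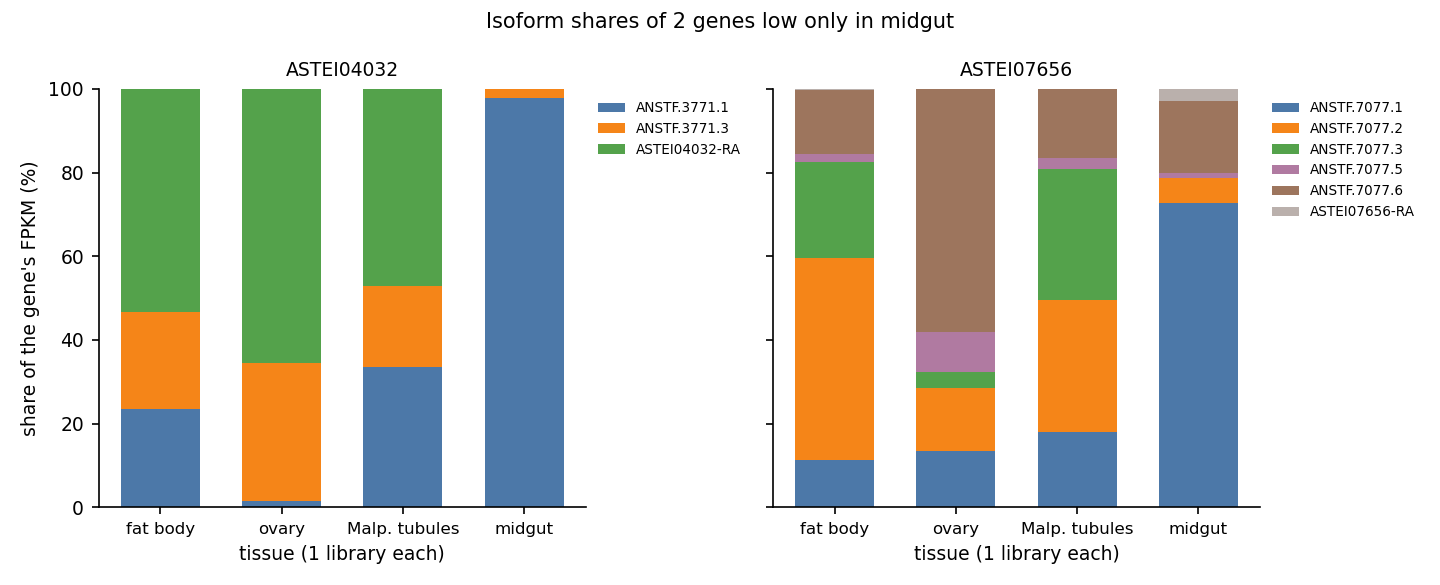
Stacked bars give the share (percent) of each isoform in the summed FPKM of ASTEI04032 and ASTEI07656 in the 4 tissues, with 1 library each. In midgut ANSTF.3771.1 holds 97.9% of ASTEI04032 and ANSTF.7077.1 holds 72.8% of ASTEI07656.

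The set was scattered over the assembly, with a few neighbours. The 183 genes lay on 89 of 988 scaffolds with a reference gene, at most 11 on a single scaffold, one that holds 402 reference genes. Of the 346 positions next to these genes on a scaffold, 4.62% were taken by genes of the set, from 8 adjacent pairs. The set was 1.48% of all genes with a midgut estimate, and no test was made. The 187 genes were 2.99% of those that could have entered. In all, 13 genes formed 5 runs of neighbouring members, and in the longest of them the models overlap. Fat body had the highest level for all genes in 4 of these runs and ovary in the other.

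The longest run held 4 genes on scaffold_00079, all highest in fat body. ASTEI08919 (31882 to 33462, plus strand) had 74.1 FPKM in fat body (65.8 to 82.6), 7.09 FPKM in ovary (3.53 to 10.8), 2.50 FPKM in Malpighian tubules (1.15 to 3.97) and 0.148 FPKM in midgut (0 to 0.618). ASTEI08920 (33360 to 37736, minus strand) had 81.1, 29.1, 6.81 and 0.505 FPKM in the same order of tissues. ASTEI08921 (36383 to 37736, minus strand) had 447, 83.5, 12.2 and 2.99 FPKM, and ASTEI08922 (37733 to 60361, plus strand) 880, 38.2, 24.1 and 5.82 FPKM. The order of the tissues was the same in all 4 genes. Their models overlap: ASTEI08920 and ASTEI08921 do so on the same strand. On the opposite strand ASTEI08920 overlaps ASTEI08919 at one end and ASTEI08922 at the other, and ASTEI08921 overlaps ASTEI08922. Fragments may therefore be divided among them. With annotated transcripts alone the ratio was 0.871 for ASTEI08919 and 0.824 for ASTEI08922. For ASTEI08919, at 0.148 FPKM in midgut over all its models, this ratio compares levels near the floor.

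In a run of 3 genes on scaffold_00029 the order was fat body, Malpighian tubules, ovary and midgut in each gene with deposited FPKM. With equal sums ovary and tubules changed places in ASTEI05241, at 6.84 and 6.76. ASTEI05240 (1393174 to 1395625, minus strand) had 226, 20.4, 13.7 and 1.79 FPKM in these tissues, ASTEI05241 (1398851 to 1410485, plus strand, 15 exons) 15.7, 4.08, 3.10 and 0.248 FPKM, and ASTEI05242 (1413438 to 1414944, plus strand) 148, 10.5, 6.81 and 0.898 FPKM. On scaffold_00005, ASTEI01413 (1985092 to 1986253) and ASTEI01414 (2005634 to 2006792), both on the plus strand with 2 exons, had 77.1 and 97.6 FPKM in fat body, 17.9 and 20.9 FPKM in ovary, 18.4 and 24.2 FPKM in Malpighian tubules, and 0.806 and 0.637 FPKM in midgut. They share assembled units with other reference genes. Whether their sequences are close copies was not tested.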

How the data were processed

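RNA from fat body, ovary, midgut and Malpighian tubules was measured in 1 library each. The submitters' processing notes name CASAVA 1.8, StringTie 1.2.1, HISAT2 and Cuffdiff; the build is not given in the sources used here. The deposited FPKM table holds 25785 transcripts with bounds and a status per tissue, per the file headers. The deposited values named counts are a scaled signal and not raw counts, so fragments were estimated from them. Their low values in transcripts alone in a gene were whole sums of 2 steps, 1 per lane, in 98.4% to 99.2% of cases within 0.1%. A step is one of the 2 lowest values found in 50 or more of these transcripts. Floors (3 fragments) cover counting error only.

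Gene levels are FPKM summed over transcripts that match the annotated one, share a junction, overlap it in the same direction or are single exons within it (classes =, j, o and e of the deposited annotation). Gene bounds are sums of transcript bounds. Equal sums are 1000000 over all transcripts. Coordinates are 1-based on the scaffolds of the annotation and span all models of a gene. The calculations used Python 3.11.15, pandas 2.3.3, numpy 2.4.6 and scipy 1.17.1, and were tested on simulated data. No count model was fitted, because each tissue had 1 library. The members and lists were chosen with earlier results of these data known. Named genes are the 2 most abundant per highest tissue, the 2 largest ratios with at least 20 fragments in each of the 3 tissues (1 of them has no midgut estimate, and the next that has one was added after the values were seen), the nearest to the threshold on each side, the 2 largest differences in isoform share, and the longest run of neighbours. The genes listed at 0 in midgut, those with few fragments and the other runs were named after their values were seen.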

Additional observations from a re-analysis of the deposited data

Results flagged for a closer look

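Transcripts left out of the gene sums showed signal in midgut beside genes of the set. At 1 FPKM or more in midgut were 6 of 11 transcripts opposite to such a gene, 1 of 2 inside an intron and 5 of 8 just past a gene end. The same count was not made for the other genes, so it shows nothing particular to the set. The most abundant, ANSTF.305.1 (scaffold_00001, 5241158 to 5290010, 6 exons), lies opposite to ASTEI00335 and had 43.2 FPKM in midgut, 11.5 FPKM in Malpighian tubules, 0.831 FPKM in ovary and 0.816 FPKM in fat body, while ASTEI00335 itself stood at 0.408 FPKM in midgut. ANSTF.1251.1, opposite to ASTEI01321, had 40.2 FPKM in midgut and between 24.9 and 34.4 FPKM in the other tissues. ASTEI01321 itself had 5.04 FPKM in midgut.

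By the same rule, 29 of 2432 intergenic loci (1.19%) were low only in midgut, 4.35% of the 667 at 2 FPKM or more in the 3 tissues. For reference genes the share was 2.99%, which counts the 4 without a midgut estimate. This difference in share was not tested. Of the 29, 19 were highest in ovary, 5 in fat body and 5 in Malpighian tubules. Several begin at base 1 of their scaffold, so what lies next to them is not known. Only transcripts classed as intergenic were summed. ANSTF.29 was counted at 0.000647 FPKM in midgut, while ANSTF.29.1 at the same position, just past the end of ASTEI00039, had 19.8 FPKM there.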

How the results depend on the processing

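No paired analysis was possible because each tissue had 1 library. The 187 genes became 510 with equal sums over all transcripts, 478 with equal sums over reference genes (186 shared), 327 with sums that leave out the 100 most abundant genes of each tissue (186 shared), 551 with a pseudocount of 0.1 FPKM, 438 at a ratio of 2, 42 at a ratio of 5, 108 with annotated transcripts only, 36 with the authors' bounds (35 shared), 391 without ovary in the rule and 385 without Malpighian tubules. Of genes with a midgut estimate, fat body was highest in 152, 140, 111, 171, 133, 20, 39 and 15 under the first 8 of these, ovary in 267, 248, 157, 308, 237, 14, 54 and 13, and Malpighian tubules in 87, 86, 55, 67, 63, 5, 12 and 4. Without fat body in the rule ovary was highest in 131 and Malpighian tubules in 54, without ovary fat body in 216 and Malpighian tubules in 88, and without Malpighian tubules fat body in 151 and ovary in 203. Of the 36 genes chosen with the bounds, 32 had a midgut estimate. That setting was stricter than bounds that do not overlap, which 166 of the 183 genes met. The share below 1 FPKM in midgut moved to 70.3% with the smaller pseudocount, 48.7% at a ratio of 5, 52.4% with annotated transcripts and 31.2% with the bounds. Median length moved to 1296 bases with annotated transcripts and 1529.5 bases with the bounds. The annotated transcripts of the other 6057 genes had a median of 1368 bases. With annotated transcripts only, the ratio fell under 1 for ASTEI07656 (0.897), ASTEI08919 (0.871) and ASTEI08922 (0.824). The cause was not tested. Median intron length moved from 1670 to 580 bases with annotated transcripts only, and also at a ratio of 5. For the ratios of named genes, the yardstick was the authors' bounds, which are wide: ASTEI09198 at 7.71 with equal sums, from 3.74, lay within them. With these bounds for named genes, and an interval of the median over genes for introns and exons, 105 values lay within, 30 outside and 3 reversed. All classes that name a gene, a minimum of 20 fragments, and genes with failed estimates left out or included (the latter chosen after seeing the data) kept the counts within 1.5 times.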
